A study of Mus musculus with 12 samples.

Results

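The genes described here encode 10 enzymes of the glycerol phosphate pathway, which builds triglyceride in the endoplasmic reticulum of the hepatocyte. They were taken by gene symbol from the 52636 genes of the deposited table, and all 10 were among the 16563 genes tested. RNA was sequenced from hepatocytes of steatotic mouse livers, and the cells of each of 6 mice were divided by fat content with a Percoll gradient and centrifugation into low-fat and high-fat hepatocytes. The 4 groups of 3 libraries were wild-type (WT) low-fat, WT high-fat, Ptprk knockout (KO) low-fat and KO high-fat hepatocytes. Ptprk encodes a receptor-type protein tyrosine phosphatase. Strain, sex, age, the diet behind the steatosis and the construction of the knockout allele are not given in the sources used here.

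The pathway starts when a glycerol 3-phosphate acyltransferase (Gpam on the outer mitochondrial membrane, Gpat3 and Gpat4 on the endoplasmic reticulum) joins a fatty acyl chain to glycerol 3-phosphate to give lysophosphatidate. Agpat2 and Agpat3 add the next chain to give phosphatidate, the lipins remove its phosphate to leave diacylglycerol, and Dgat1 or Dgat2 adds the last chain to make triglyceride. In liver this triglyceride is stored in lipid droplets or exported in very low density lipoprotein, and Lpin1 also acts in the nucleus as a transcriptional coactivator during fasting.

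None of the 10 genes differed between KO and WT hepatocytes, or between high-fat and low-fat hepatocytes, at a limma adjusted p under 0.05. The widest variation was that of a pair of lipin genes between mice: Lpin1 varied 9.16-fold and Lpin2 3.01-fold over the 12 libraries, while Gpat4, Agpat3, Dgat1 and Dgat2 each stayed within 1.38-fold. Within the lipins, the share of Lpin1 was lower and that of Lpin2 higher in the high-fat fraction of each of the 6 mice. These shares nearly mirror each other, since Lpin3 averaged 1.77% of the lipin transcripts, so they are not separate observations. The level of Lpin2 itself fell in 2 of the 6 mice. The test of the shares was chosen after the values were seen. It did not pass the correction (sign-flip permutation test, Benjamini-Hochberg adjusted p = 0.125).

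Estimated depth lay between 15.1 and 25.0 M reads per library, and levels are given as reads per 20 M after trimmed-mean-of-M-values scaling (TMM) between libraries, with factors between 0.937 and 1.075. A level of 3 reads corresponded to between 2.4 and 3.98 reads per 20 M. In low-fat hepatocytes Ptprk itself stood at 2835 ± 63.0 for WT and 1297 ± 110 for KO, and in high-fat hepatocytes at 2361 ± 253 and 1180 ± 47.0 (SD, n = 3 each), with KO against WT log2 fold changes of -1.13 (limma adjusted p = 0.0013) and -0.99 (limma adjusted p = 0.00501). The summed level of 10 hepatocyte markers lay between 505691 and 643485 in every library. Over both genotypes 1 of these 10 was called higher and 0 lower in high-fat libraries (1 and 1 with a term for each mouse). Markers of other liver cells differed between the fractions: 8 of 9 Kupffer cell, 9 of 9 stellate cell and 8 of 8 sinusoidal endothelial markers were called higher in the high-fat libraries over both genotypes. Biliary epithelial markers went the other way. In WT their sum was 408 to 491 in low-fat and 307 to 348 in high-fat libraries. In KO it was 368 to 531 and 266 to 362. Of the 2 biliary markers tested, 0 were called without and 1 was called lower with a term for each mouse. Mice are numbered 1 to 3 within each genotype by the replicate numbers of the sample titles. A number shared by a WT and a KO mouse does not make them the same animal. The high-fat libraries of the mice numbered 1 stood apart, with Kupffer marker sums of 10923 (WT) and 9227 (KO) against 2193 to 2349 in the other 4 high-fat libraries and 492 to 1296 in the low-fat libraries. Of 6 adipocyte markers, Adipoq, Lep, Retn and Plin1 were under 5 in every library, while Cfd (log2 difference between fractions 1.48) was called higher in high-fat libraries with a term for each mouse (limma adjusted p = 0.0084; 0.287 without it) and Adrb3 (0.35) was not. The adipocyte sum ranged from 267 to 312 in WT low-fat, 415 to 690 in WT high-fat, 178 to 291 in KO low-fat and 234 to 583 in KO high-fat hepatocytes. Zonation and lipogenesis genes of the hepatocyte also moved with the fraction: 3 of 7 pericentral markers were called higher and 4 of 7 periportal markers lower in high-fat libraries (5 and 5 with a term for each mouse), and of 10 lipogenesis genes 0 were called without that term and 6 were lower with it. Their part in the differences between fractions described below was not tested. In bulk RNA, fewer cells of a type and less RNA per cell cannot be told apart, and this holds for each comparison of fractions below.

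Per kilobase of the longest coding transcript (GENCODE M21), the transcripts of the last step were the most abundant. Dgat2 averaged 6350 ± 567 reads per 20 M per kb (SD over 12 libraries), followed by Agpat2 at 3940 ± 509, and their ranges did not overlap (5220 to 7190 against 3210 to 4850). Lpin2 (1360 ± 430), Agpat3 (1180 ± 100), Lpin1 (1110 ± 737) and Gpat4 (1040 ± 96.4) followed with overlapping ranges. Gpam stood at 783 ± 110, and its range of 620 to 962 overlapped that of Gpat4. Dgat1 came next at 275 ± 19.4, with a highest value of 298, below the lowest of Gpam. Gpat3 (63.9 ± 20.3) and Lpin3 (36.8 ± 6.41) were the least abundant, and their ranges overlapped.

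Among the enzymes listed for each step, 1 or 2 transcripts made up most of the length-corrected sum. With few genes listed per step this was largely set by the list, and Gpat2, Agpat1, Agpat4 and Agpat5 were not in the sums. A share of transcripts is not a share of enzyme activity, which was not measured. Dgat2 made up 95.8% ± 0.532 of the length-corrected diacylglycerol acyltransferase transcripts and Dgat1 4.18% ± 0.532 (SD over 12 libraries). Gpat4 made up 55.2% ± 4.12 of the glycerol 3-phosphate acyltransferase transcripts, Gpam 41.4% ± 4.61 and Gpat3 3.38% ± 1.05. Agpat2 gave 76.8% ± 2.38 of the sum of Agpat2 and Agpat3. These shares depend on the transcript length used, since the isoforms present were not measured.

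The totals of the steps differed in how much they varied. The summed glycerol 3-phosphate acyltransferase level ranged 1.23-fold over the 12 libraries, from 1670 to 2060 reads per 20 M per kb. The diacylglycerol acyltransferase sum ranged 1.35-fold and the sum of Agpat2 and Agpat3 1.41-fold. The lipin sum ranged 3.87-fold, from 977 in WT low-fat library 2 to 3780 in WT high-fat library 1.

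The plot of levels by mouse shows the wide ranges of Lpin1 and Lpin2, while Lpin3 ranged 1.83-fold, less than Gpat3 at 2.57-fold.

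**Figure D1:**
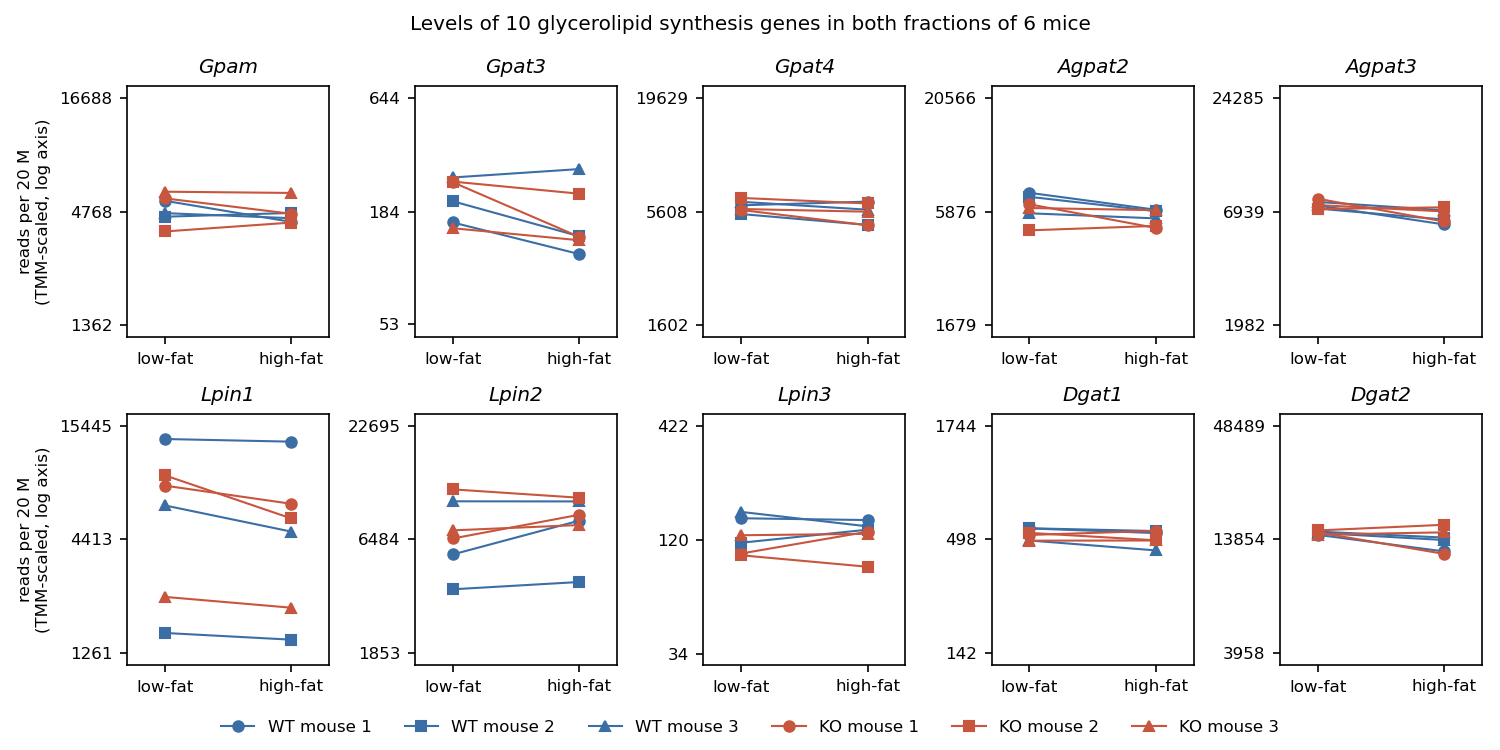
Level of each gene (TMM-scaled reads per 20 M, log axis of the same fold range in every panel) in the low-fat and high-fat library of each mouse, with a line joining the libraries of a mouse (blue WT, red KO). The lines of Lpin1 are spread from 1458 to 13357, whereas those of Agpat3 lie between 6021 and 7996.

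The enzymes of the first step are described first. Gpam (ENSMUSG00000024978; chromosome 19, 55067268 to 55127238, minus strand, GRCm38) encodes the mitochondrial acyltransferase. In WT mice 1, 2 and 3 its level was 5375, 4505 and 4688 in low-fat and 4257, 4697 and 4432 in high-fat libraries. In KO mice 1, 2 and 3 it was 5518, 3828 and 5939 in low-fat and 4656, 4223 and 5857 in high-fat libraries. The groups overlapped in every comparison, and the lowest and the highest value both came from KO low-fat libraries. The KO against WT log2 difference was 0.05 (95% interval -0.31 to 0.41) in low-fat and 0.13 (-0.23 to 0.49) in high-fat libraries.

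Gpat4 (ENSMUSG00000031545; chromosome 8, 23171265 to 23208346, minus strand) was the most abundant acyltransferase of this step. Its mean was 5906 ± 406 and 5609 ± 717 in the low-fat and high-fat fractions of WT, and 5999 ± 452 and 5520 ± 659 in those of KO (SD, n = 3 each). In 5 of 6 mice its level was lower among high-fat hepatocytes, by at most 0.243 on the log2 scale, and the exception was WT mouse 1 (6011 and 6260).

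Gpat3 (ENSMUSG00000029314, chromosome 5, 100845713 to 100899102, plus strand), which is prominent in adipocytes, varied both between mice and in its difference between fractions. On the log2 scale the SD was 0.405 over the 6 mouse means and 0.351 over the 6 high-fat minus low-fat differences. A mean of 2 libraries and a difference between them are not on one scale, so these SDs do not rank the sources. In the WT mice 1, 2 and 3 its level was 163, 206 and 268 in low-fat and 115, 140 and 294 in high-fat libraries. In the KO mice it was 254, 256 and 153 in low-fat and 139, 224 and 134 in high-fat libraries. In 5 of 6 mice it was lower among high-fat hepatocytes, WT mouse 3 being the exception, with the largest difference in KO mouse 1 (log2 -0.867). Read counting alone gives an error of about 7.21% at this level, and 1 of the 2 genes that overlap Gpat3 lies on the same strand. Over both genotypes the high-fat minus low-fat log2 difference was -0.36 (95% interval -0.9 to 0.18; limma adjusted p = 0.493), and with a term for each mouse the limma adjusted p was 0.113. Without the high-fat libraries of the mice numbered 1 the difference was -0.15 on the log2 scale.

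Agpat2 (ENSMUSG00000026922; chromosome 2, 26593057 to 26604417, minus strand), the acyltransferase whose loss causes congenital generalized lipodystrophy, averaged 6637 ± 770 and 5784 ± 292 in the low-fat and high-fat fractions of WT, and 5753 ± 855 and 5297 ± 585 in those of KO (SD, n = 3 each). The KO against WT log2 difference was -0.21 (95% interval -0.5 to 0.07) in low-fat and -0.13 (-0.42 to 0.15) in high-fat libraries. Its annotated span overlaps Egfl7, a gene of endothelial cells, on the opposite strand. Whether the counting used strand is not given in the sources used here.

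Agpat3 (ENSMUSG00000001211; chromosome 10, 78269178 to 78352489, minus strand) favours polyunsaturated acyl chains. It had the smallest spread between mice of the 10 genes, with an SD of the 6 mouse means of 0.0561 on the log2 scale against a median of 0.129 over the 10517 genes with a mean of at least 100. In WT mice 1, 2 and 3 its level was 7421, 7175 and 7720 in low-fat and 6021, 6354 and 7038 in high-fat libraries. In KO mice 1, 2 and 3 it was 7996, 7136 and 7454 in low-fat and 6220, 7273 and 6950 in high-fat libraries. The WT high-fat libraries all lay below the WT low-fat libraries, as they did for 7.73% of the genes tested, and among the 10 enzymes this separation was seen for Agpat3 and Dgat2. With the deposited scaling alone the WT separation held for Agpat3 (at most 7126 in high-fat and at least 7237 in low-fat libraries). It was lost for Dgat2, at 14191 in WT high-fat library 2 against 13941 in WT low-fat library 3. In KO mice the Agpat3 levels of the fractions overlapped, because KO mouse 2 was slightly higher in the high-fat library. Over both genotypes the log2 difference of Agpat3 was -0.17 (95% interval -0.32 to -0.03), with an unadjusted p of 0.0207 and a limma adjusted p of 0.17. The lowest Agpat3 levels, 6021 and 6220, were in the high-fat libraries with the highest Kupffer marker sums, and over 12 libraries, 2 from each mouse, its log2 level had a Pearson's r of -0.89 with the mean of the Kupffer markers, -0.89 with that of the endothelial markers and 0.81 with that of 7 periportal markers. Without those high-fat libraries the difference was -0.0997, and the part of other cell types in it was not tested.

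The lipins carried most of the variation of the family. Lpin1 (ENSMUSG00000020593; chromosome 12, 16535669 to 16610966, minus strand) is induced by fasting and glucocorticoids in liver. In WT mice 1, 2 and 3 its level was 13357, 1570 and 6419 in low-fat and 12972, 1458 and 4808 in high-fat libraries. In KO mice 1, 2 and 3 it was 7986, 8952 and 2338 in low-fat and 6535, 5563 and 2075 in high-fat libraries. WT mouse 1 had the highest and WT mouse 2 the lowest levels of all mice in both fractions, so that the KO mice lay between WT mice.

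The SD of the 6 mouse means of Lpin1 was 1.17 on the log2 scale, larger than that of 99.6% of the 10517 genes compared, while the SD of its high-fat minus low-fat differences was 0.238. The KO against WT log2 difference was accordingly imprecise, at 0.1 (95% interval -1.88 to 2.08) in low-fat and -0.09 (-2.07 to 1.89) in high-fat libraries. In low-fat hepatocytes the interval spans from 0.273 to 4.24 times the WT level, a wide range for a gene of this abundance. Single mice decided the low-fat estimate, which was 0.791 without WT library 1, -0.748 without WT library 2, -0.164 and -0.247 without KO libraries 1 and 2, and 0.722 without KO library 3.

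Lpin1 was lower in the high-fat fraction of all 6 mice, which was so for 11.6% of the genes tested, and of the 10 enzymes only for Lpin1. The log2 differences were -0.0422, -0.106 and -0.417 in WT mice 1 to 3 and -0.289, -0.686 and -0.172 in the KO mice. With the deposited scaling alone, WT mouse 1 was higher in the high-fat library (13102 against 13570), leaving 5 of 6 mice lower. The mean log2 difference of -0.29 had a standard error of 0.64 without and 0.079 with a term for each mouse, and the limma adjusted p-values were 0.866 and 0.0572. Lpin1 therefore did not pass the threshold in either fit.

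Lpin2 (ENSMUSG00000024052; chromosome 17, 71182560 to 71249817, plus strand) is the most abundant lipin of mouse liver. In WT mice 1, 2 and 3 its level was 5490, 3736 and 9866 in low-fat and 7974, 4049 and 9854 in high-fat libraries. In KO mice 1, 2 and 3 it was 6547, 11254 and 7159 in low-fat and 8507, 10263 and 7595 in high-fat libraries. WT mouse 2 was the lowest for Lpin2 as for Lpin1, but the mouse highest in Lpin1, WT mouse 1, was not high in Lpin2. The KO against WT log2 difference was 0.46 (95% interval -0.36 to 1.29) in low-fat and 0.35 (-0.47 to 1.18) in high-fat libraries, with overlapping groups in both fractions. The low-fat value was 0.136 without WT library 2, 0.221 without KO library 2 and 0.822 without WT library 3.

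Lpin3 (ENSMUSG00000027412; chromosome 2, 160880670 to 160906002, plus strand) is the minor lipin of liver. In the WT mice 1, 2 and 3 its level was 152, 116 and 163 in low-fat and 149, 134 and 139 in high-fat libraries. In the KO mice it was 103, 101 and 126 in low-fat and 131, 89 and 128 in high-fat libraries. The KO high-fat libraries all lay below the WT high-fat libraries, as for 3.07% of the genes tested, and Lpin3 was the 1 enzyme of the 10 with this separation. With the deposited scaling alone these high-fat libraries overlapped, at 141 in KO mouse 1 against 135 in WT mouse 2. In the low-fat libraries the genotypes overlapped. The log2 difference was -0.37 (95% interval -0.77 to 0.03) in low-fat and -0.29 (-0.7 to 0.11) in high-fat libraries, each with a limma adjusted p of 1.0, and read counting alone gives an error of about 8.68% at this level.

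Set against each other within a library, the lipins do not depend on the scaling between libraries. Lpin1 made up 70.2%, 28.8% and 39.0% of the length-corrected lipin transcripts in the low-fat libraries of WT mice 1, 2 and 3, and 61.5%, 25.7% and 32.5% in their high-fat libraries. In KO mice 1, 2 and 3 it made up 54.6%, 44.2% and 24.3% in low-fat and 43.1%, 35.1% and 21.2% in high-fat libraries. Thus Lpin1 was the larger part of the lipin pool in mouse 1 of each genotype in the low-fat fraction and Lpin2 in the other 4 mice. The share of Lpin1 was lower in the high-fat fraction of 6 of 6 mice (mean difference -7.0 ± 3.41 percentage points, SD, n = 6; range -11.5 to -3.1), and that of Lpin2 was higher in 6 of 6 mice (6.92 ± 3.44 points). A two-sided exact sign-flip permutation test over the 6 mice gave p = 0.0312 for each, the smallest value that 6 mice allow, and p = 0.125 after Benjamini-Hochberg adjustment over the 8 shares tested. This test was chosen after the values were seen, and the difference does not pass the correction. With Lpin3 at 1.77% on average, the shares of Lpin1 and Lpin2 nearly mirror each other. They are not separate observations, although the adjustment counted them as such.

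**Figure D2:**
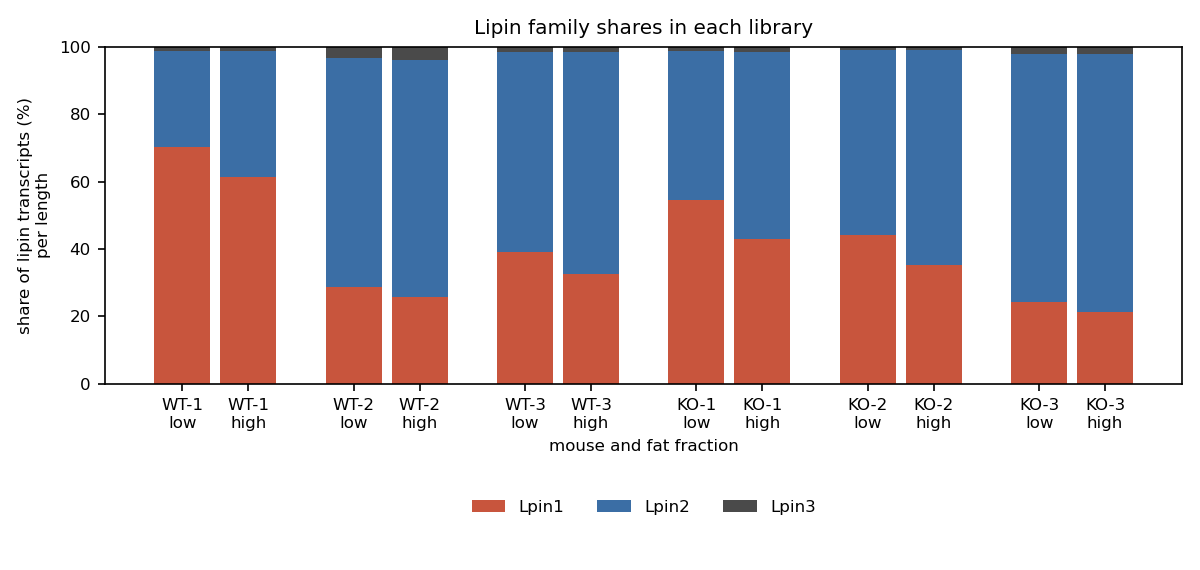
Share of Lpin1 (red), Lpin2 (blue) and Lpin3 (dark grey) in the length-corrected lipin transcripts of each library (percent), with the low-fat and high-fat library of a mouse side by side. The share of Lpin1 ranges from 21.2% to 70.2% and is lower in the high-fat library of each mouse.

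The sequences before the annotated starts of the lipins that varied most between mice, and of Agpat3, which varied least, are printed here so that they can be compared. Each is the 250 bases before a RefSeq transcript start (GRCm38.p6), read 5′ to 3′ on the gene's strand, with matches to the searched motifs in capitals.
Lpin1, chr12:16610967-16611216, minus strand: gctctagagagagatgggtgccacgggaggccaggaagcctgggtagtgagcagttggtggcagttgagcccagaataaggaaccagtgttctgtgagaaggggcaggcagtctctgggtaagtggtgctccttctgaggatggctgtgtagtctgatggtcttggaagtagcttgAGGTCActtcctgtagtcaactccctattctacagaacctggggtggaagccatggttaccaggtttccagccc
Lpin2, the first of 3 annotated starts, chr17:71183282-71183531, plus strand: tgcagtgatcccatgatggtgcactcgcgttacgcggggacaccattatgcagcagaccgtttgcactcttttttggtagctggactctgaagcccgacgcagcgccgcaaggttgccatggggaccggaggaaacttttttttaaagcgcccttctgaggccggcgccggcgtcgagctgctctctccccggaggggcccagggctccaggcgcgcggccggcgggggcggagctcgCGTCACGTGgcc
Agpat3, chr10:78351701-78351950, minus strand: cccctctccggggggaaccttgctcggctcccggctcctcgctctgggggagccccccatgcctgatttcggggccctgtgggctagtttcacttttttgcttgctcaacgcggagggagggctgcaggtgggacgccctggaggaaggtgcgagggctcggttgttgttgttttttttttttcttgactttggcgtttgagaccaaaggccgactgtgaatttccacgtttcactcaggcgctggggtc

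The capitals in Lpin1 mark AGGTCA, the hexamer bound by many nuclear receptors, whose first base lies at -74. Those in Lpin2 mark CACGTG, an E-box that starts at -9, overlapped by TGACG read on the opposite strand, which starts at -12. No motif of the 6 searched is in the Agpat3 stretch. The motifs were searched on both strands in windows of 300 bases (250 before to 50 after the start) of 7 of the 10 enzymes, 11 windows in all. Among the 32544 such windows given by RefSeq, 16.2% held AGGTCA, 7.17% CACGTG, 20.9% TGACG, 37.4% CCAAT, 1.8% TGACGTCA and 1.24% TCACNCCAC, a form of the sterol regulatory element. None of the 11 windows held the last 2 of these. The other motifs were not limited to the variable lipins. CACGTG was also in the first Lpin3 window, TGACG in that of Gpat3, and AGGTCA and TGACG in the second Gpam window. CCAAT was in the first Gpam and the third Lpin2 window. The windows of Agpat2 and Agpat3, and the second windows of Lpin2 and Lpin3, held no motif. A match of letters is a description of the sequence, and no binding was measured.

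The final step showed little variation. Dgat2 (ENSMUSG00000030747; chromosome 7, 99153658 to 99182719, minus strand) acts mainly on newly made fatty acids. In WT mice 1, 2 and 3 its level was 14563, 15088 and 14872 in low-fat and 12123, 14125 and 13750 in high-fat libraries. In KO mice 1, 2 and 3 it was 14958, 15283 and 14588 in low-fat and 11798, 16268 and 14966 in high-fat libraries. The low-fat libraries of both genotypes lay close together, and the KO against WT log2 difference there was 0.01 (95% interval -0.25 to 0.27), which corresponds to between 0.841 and 1.21 times the WT level. The lowest levels, 11798 and 12123, were again in the high-fat libraries of the mice numbered 1, and Pearson's r over 12 libraries with the mean of the Kupffer markers was -0.77. Over both genotypes the log2 difference between fractions was -0.11 with and 0.00331 without those libraries, and the part of other cell types in it was not tested.

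Dgat1 (ENSMUSG00000022555; chromosome 15, 76502015 to 76511953, minus strand), which esterifies preformed fatty acids, averaged 539 ± 40.9 and 507 ± 57.5 in the low-fat and high-fat fractions of WT, and 516 ± 22.6 and 511 ± 31.5 in those of KO (SD, n = 3 each). Its lowest and highest levels were 441 and 563, the smallest range of the 10 genes (1.28-fold). The KO against WT log2 difference was -0.06 (95% interval -0.29 to 0.17) in low-fat and 0.01 (-0.21 to 0.24) in high-fat libraries.

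Across the genome, the KO against WT comparison called 0.00604% of the genes tested for low-fat and 0.00604% for high-fat hepatocytes, in each case 1 gene, Ptprk. That call was lost in each fraction when only the 6 libraries compared were fitted, and in high-fat hepatocytes also without WT library 3 or without any 1 of the 3 KO libraries. None of the 10 enzymes was called by limma in either fraction, and none had an unadjusted p under 0.05. With the replicate number as a block 1 of the 10 had such a p, Lpin3 in low-fat hepatocytes (unadjusted value 0.026, limma adjusted p = 1.0), beside 537 genes (3.24%) in that fit. Without the block, 285 of all genes (1.72%) had such a p in low-fat and 334 (2.02%) in high-fat libraries. The median log2 difference of the 10 enzymes was 0.019 in low-fat and -0.004 in high-fat libraries, beside -0.004 and -0.014 over all genes. The intervals stayed within 0.3 of no difference on the log2 scale in both fractions for Gpat4, Agpat3 and Dgat1. They were wide for Lpin1, Lpin2 and Gpat3. The fit behind them takes the 12 libraries as independent, whereas they come from 6 mice with a same-mouse correlation of 0.38. Each KO against WT interval given here may therefore be too narrow, and none is a firm bound on an effect of the knockout.

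**Figure D3:**
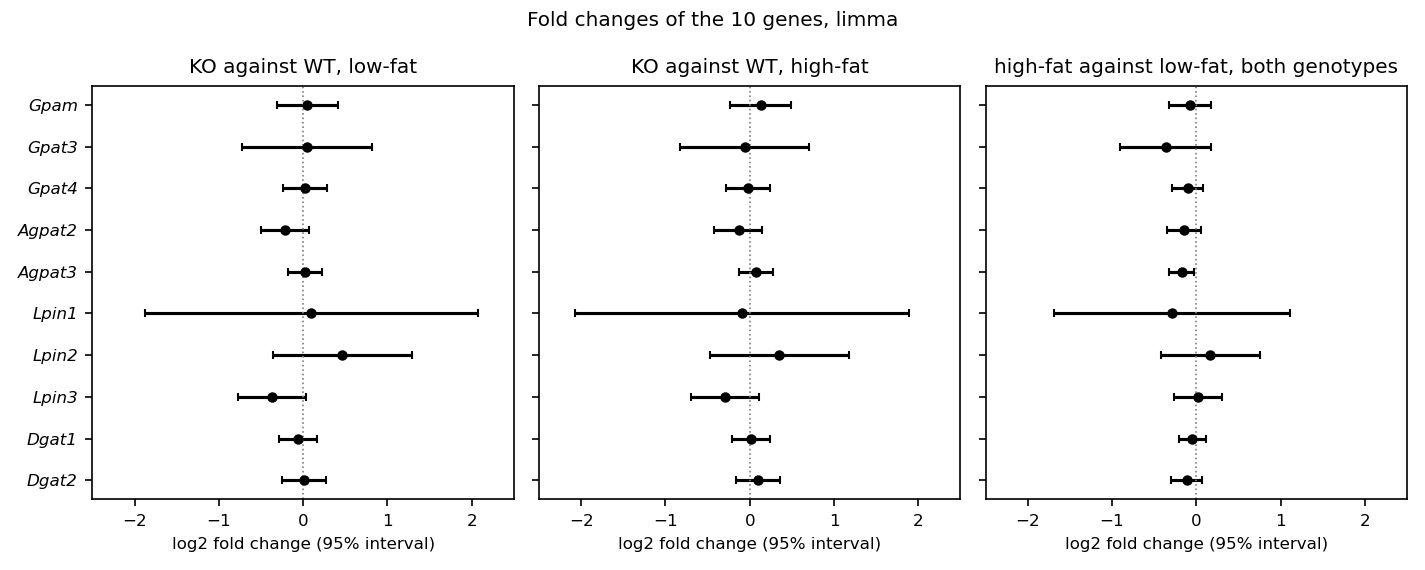
log2 fold change (point) and 95% interval (bar) of each gene for KO against WT in low-fat libraries, KO against WT in high-fat libraries, and high-fat against low-fat libraries over both genotypes, from limma. The intervals of Lpin1 reach from -1.88 to 2.08 in the first panel, and those of Agpat3 from -0.18 to 0.22. The fit had no mouse term.

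Between the fractions 0.0% of genes were called in WT, 0.839% in KO and 5.77% over both genotypes, and the interaction of genotype and fraction called 0.0%. No enzyme of the 10 was called by limma in any of these. With a term for each mouse the shares were 0.0% in WT, 1.7% in KO and 11.0% over both genotypes, and again no enzyme was called. At an unadjusted p under 0.05, 1 enzyme (Agpat3) of 10 differed over both genotypes beside 18.3% of all genes, and 4 (Gpat3, Agpat2, Agpat3 and Lpin1) with a term for each mouse, beside 28.0% of all genes in that fit. The log2 difference was below 0 for 8 of 10 enzymes, with a median of -0.109, beside 54.8% of all genes and a median of -0.022. On the deposited scaling alone Dgat1 moved to 0.000995, above 0. For the interaction the unadjusted p was under 0.05 for none of the 10 and for 24 genes in all.

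The SD of the mouse means and the SD of the within-mouse differences were each compared with those of the 10517 genes whose mean was at least 100. Lpin1 and Lpin2 had SDs of mouse means (1.17 and 0.519) above those of 99.6% and 96.1% of these genes, and Gpat3 (0.405) above 93.0%. Gpat4, Dgat1, Dgat2 and Agpat3 were below the median of 0.129, at 0.122, 0.0973, 0.0954 and 0.0561. For the within-mouse difference between fractions, Gpat3 was the most variable of the 10 (SD 0.351) and Dgat1 the least (0.0803), around a median gene at 0.153.

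**Figure D4:**
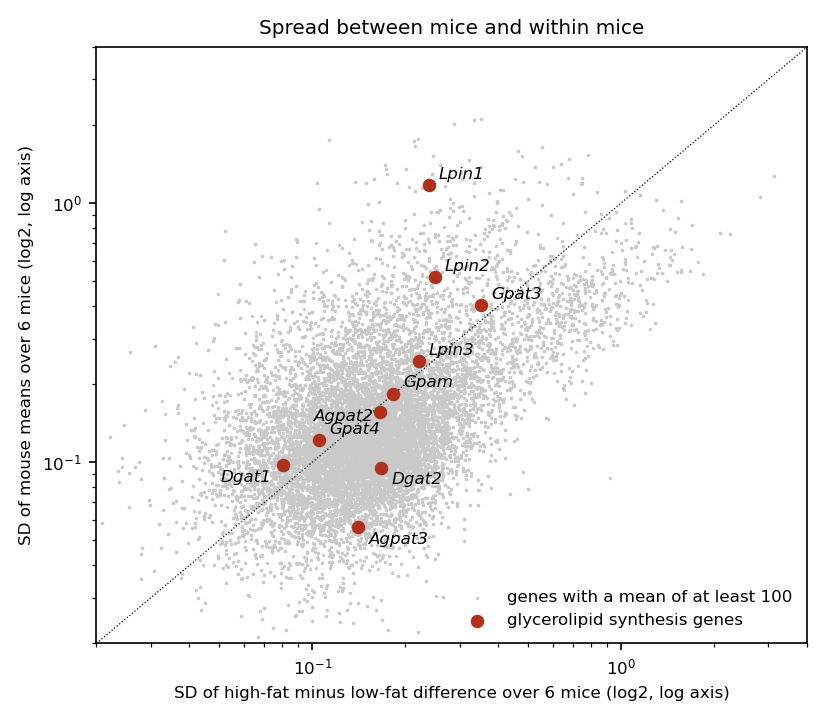
SD of the 6 mouse means (vertical) against SD of the 6 high-fat minus low-fat differences (horizontal), both in log2 units on log axes, for 10517 genes (grey) and the 10 enzymes (red), with a dotted line of equality. Lpin1 lies far above the line (1.17 against 0.238) and Agpat3 below it (0.0561 against 0.141). The line does not mark equal spread between and within mice. A gene whose libraries did not depend on the mouse would be expected below it.

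The enzymes did not vary as a block from library to library. Over the 45 pairs of enzymes, Pearson's r of log2 levels across the 12 libraries had a median of 0.05 and ranged from -0.74 for Agpat2 and Lpin2 to 0.76 for Agpat3 and Dgat2. It was over 0.5 for 7 pairs and under -0.5 for 3. Lpin1 and Lpin2 had an r of 0.53, and Gpam and Agpat2 0.57. The libraries of a mouse share that mouse, so these values describe 6 animals.

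With the mean of 10 lipogenesis genes, Agpat2 had an r of 0.87, Gpam 0.66 and Lpin2 -0.7 over the same libraries. For Lpin1 the value was -0.09, and with the mean of 14 clock genes it was -0.51, beside -0.59 for Lpin3 and 0.52 for Dgat2. The clock genes did not move together, so their mean does not measure the phase of the clock. Dbp and Npas2 stood at 79 and 375 in WT low-fat library 1, and at 1992 and 38 in KO low-fat library 2. The clock output gene Dbp ranged from 74 in WT high-fat library 1 to 1992 in KO low-fat library 2, again more between mice than between the fractions of a mouse. The hour at which livers were taken is not given in the sources used here. Over the 12 libraries the sum of 10 fasting and glucocorticoid genes lay between 146206 and 214476. That of 4 nuclear-retained RNAs lay between 36870 and 161187. Neither list was correlated with the enzymes, and their part in the spread between mice was not tested.

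The genes whose levels followed the 3 most variable enzymes most closely were named by their r over the 12 libraries. For Lpin1 they were Gm42031 (r = 0.961), Hspa5 (0.947) and Morf4l2 (0.922). Hspa5, the endoplasmic reticulum chaperone BiP, stood at 26782, 14379 and 20217 in the low-fat libraries of WT mice 1, 2 and 3 and at 22537, 22745 and 13756 in those of the KO mice. The mice lowest in Lpin1, WT mouse 2 and KO mouse 3, were thus also the lowest in Hspa5. For Lpin2 they were Map1lc3b (0.902), which encodes a protein of the autophagosome, Arhgef26 (0.886) and 8430408G22Rik (0.886). For Gpat3 they were Zfp110 (0.925), AC153899.1 (0.922) and Gnptg (0.897). These genes were picked for their r among the genes tested, and r over 12 libraries from 6 mice is given as a description.

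A list of 39 genes around the pathway was examined beside the enzymes, and 36 were tested. In KO against WT none of the 36 was called in either fraction by limma. Over both genotypes 1 was called higher and 0 lower in high-fat hepatocytes, beside 5.77% of all genes called in either direction. With a term for each mouse 4 were called higher and 3 lower, beside 11.0% of all genes.

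Glycerol 3-phosphate supply (5 genes) was led in read level by Gpd1, which makes glycerol 3-phosphate from a glycolytic intermediate (mean 10785), and Aqp9, the glycerol channel of the hepatocyte (mean 8163). None of the 5 was called without the mouse term. Aqp9 was higher in the high-fat library of every mouse, which was so for 9.96% of the genes tested. In WT mice 1, 2 and 3 its level was 5701, 6908 and 8731 in low-fat and 7893, 8685 and 10053 in high-fat libraries. In the KO mice it went from 5920, 7102 and 9060 to 7355, 9931 and 10621. The log2 difference was 0.34, with a limma adjusted p of 0.225 without and 0.0113 with a term for each mouse.

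Among 6 other acyltransferase genes, with Lpgat1 (mean 5999) and Lclat1 (1361) the highest in read level, none was called in either fit. Of the monoacylglycerol route 2 of 4 genes were tested, Awat2 (mean 34) and Mogat1 (mean 32). Mogat1, which makes diacylglycerol from monoacylglycerol and so bypasses the lipins, was scarce. Its level was 16, 18 and 50 in low-fat and 33, 52 and 73 in high-fat libraries of WT mice 1, 2 and 3, and 18, 15 and 14 in low-fat and 20, 41 and 29 in high-fat libraries of the KO mice. It was higher in the high-fat library of each mouse, as were 9.96% of the genes tested. The log2 difference was 0.88, with limma adjusted p-values of 0.129 without and 0.0385 with a term for each mouse.

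The 7 acyl-CoA synthetases, which activate fatty acids for the pathway, were led by Slc27a2 (mean 32338) and Acsl1 (27672). None was called without the mouse term, and with it 1 fell in high-fat hepatocytes, Acsl3 (log2 -0.34, limma adjusted p = 0.0167; 0.393 without the term). Acsl3, an enzyme of the lipid droplet surface, was lower in high-fat hepatocytes of every mouse, from 599 on average to 477. A lower level in every mouse was seen for 11.6% of the genes tested.

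Of 10 tested genes of the branches to phospholipid, led by Pcyt2 (mean 8320) and Chpt1 (5456), none was called without the mouse term and 2 were lower with it. These were Cds2, which draws phosphatidate into CDP-diacylglycerol (3343 to 2958; limma adjusted p = 0.0453, 0.135 without the term), and the choline kinase gene Chka (2544 to 2217; limma adjusted p = 0.0239, 0.764 without the term).

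Among 6 genes of other lipid phosphatases and lipin regulators, led by Plpp3 (mean 3547) and Bscl2 (1137), Plpp1 rose in high-fat hepatocytes. Plpp1 encodes a lipid phosphate phosphatase of the plasma membrane. Its level was 108, 91 and 75 in low-fat and 356, 189 and 156 in high-fat libraries of WT mice 1, 2 and 3, and 55, 83 and 68 in low-fat and 205, 160 and 159 in high-fat libraries of the KO mice. The high-fat libraries all lay above the low-fat libraries in both genotypes, as they did for 9.64% of the genes tested in WT and 7.8% in KO. The log2 difference was 1.29 (standard error 0.2, limma adjusted p = 0.00391). The Kupffer, stellate and endothelial markers were also higher in these libraries, and the highest Plpp1 levels, 356 and 205, were in those with the highest Kupffer sums; the part of other cell types in the Plpp1 difference was not tested. Plpp3 was called higher with the mouse term (log2 0.38, limma adjusted p = 0.0311) and not without it (0.389).

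**Figure D5:**
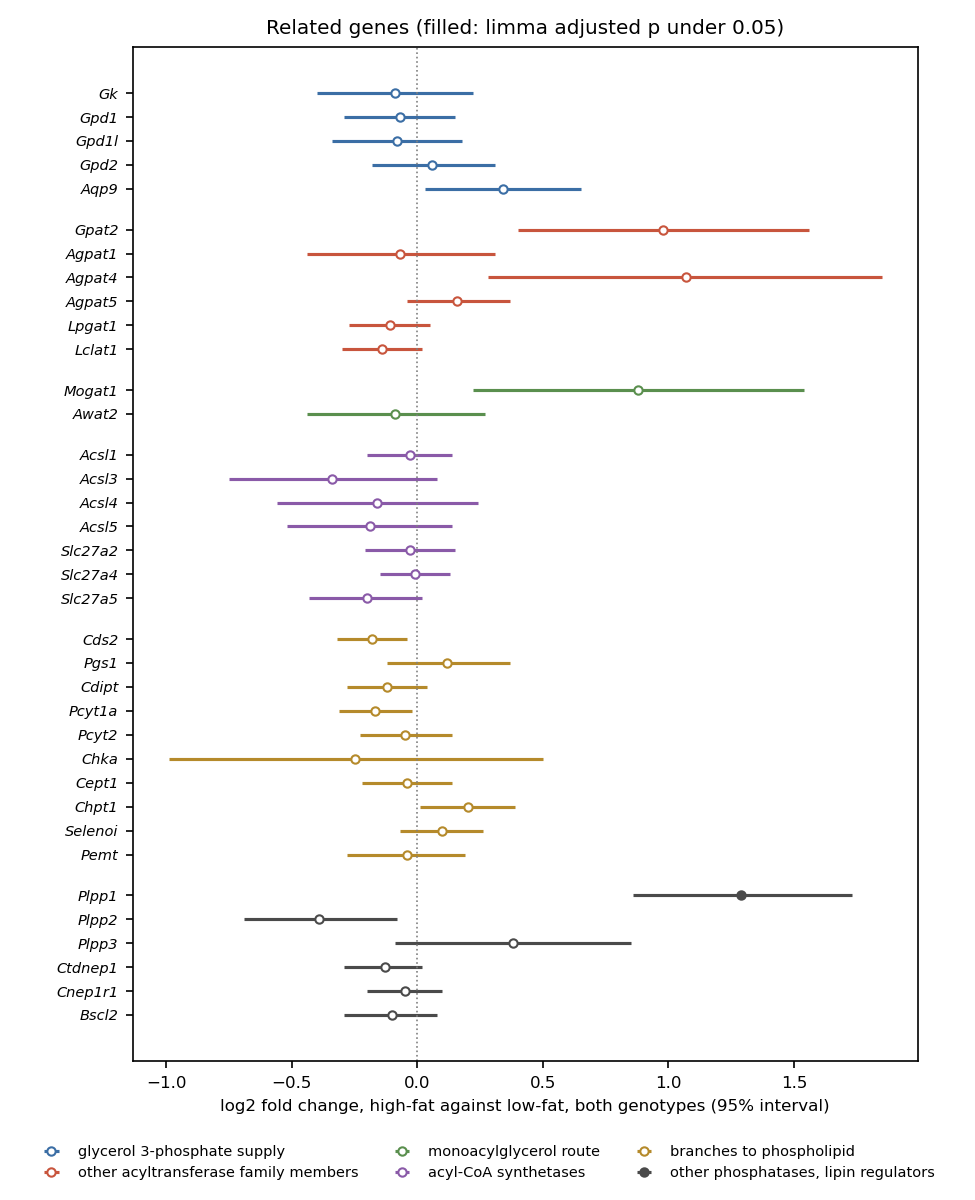
Fold change (log2) between fractions, high-fat over low-fat, both genotypes (point) with its 95% interval (bar) for the 36 tested genes around the pathway, coloured by group, from limma without a mouse term. The filled point is Plpp1 at 1.29, and the other points are open because their adjusted p was not under 0.05.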

How the data were processed

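Libraries of polyA RNA were made from low-fat and high-fat hepatocytes of 3 WT and 3 KO mice. The deposited values are a score: the authors scaled the gene reads of each library to 20 M and rounded up, as read from the values, which sum to 20.01 M per column. The submitters' processing notes name the build mm9. The aligner, counter and strand setting are not given in the sources used here. Depth was estimated from the steps between low values.

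The 16563 genes reaching a value of 10 in 3 or more libraries were rescaled by TMM and taken as log2(value + 2), and limma 3.58.1 in R 4.3.3 fitted 4 group means with a variance trend. Fold changes on this scale understate those of low genes. P-values are two-sided, Benjamini-Hochberg adjusted over all genes tested, with a threshold of 0.05. Coordinates and lengths come from GENCODE M21 (GRCm38). The enzymes, lists and tests were chosen with earlier results of these data known. Named genes were the 10 enzymes, Ptprk, the called genes and the 2 of highest mean in each related group, and the 3 genes most like each of the 3 most variable enzymes. Dbp, Npas2, the motifs' sequences shown and the exact test of shares were chosen after values were seen.

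Low-fat and high-fat libraries of a number come from the same mouse per the labels, so a second fit had a replicate block. Deviations of same-numbered libraries correlated (mean r 0.516 for WT, 0.165 for KO). Same-numbered WT and KO mice differ, yet r was 0.251 to 0.396 in the low-fat libraries, so that comparison was also fitted with the number as a block. Other alternatives were the scaling, pseudocount, filter, variance trend, a same-mouse correlation, the libraries fitted and each library left out.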

Additional observations from a re-analysis of the deposited data

How the results depend on the processing

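No enzyme of the 10 was called under any alternative run, over 550 recomputed log2 differences, and the smallest adjusted p was 0.0572 (Lpin1 over both genotypes with the replicate block). The sign held in 511 of the 550 and changed in 39, all of them differences that had not passed the test. With the deposited scaling alone Dgat1 over both genotypes was 0.000995, and with TMM factors over all genes Gpat4 in high-fat KO against WT was 0.00639. With the high-fat libraries of number 1 left out (chosen after seeing the data), Gpat4 was 0.152 and Lpin1 0.356 in high-fat KO against WT, and Lpin3 was -0.027 and Dgat2 0.00331 over both genotypes. The cause was not tested.

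Leaving out each library in turn gave ranges with both signs for 14 of the 30 log2 differences. These were, for KO against WT in low-fat libraries, Gpam -0.075 to 0.241, Gpat3 -0.128 to 0.292, Gpat4 -0.0396 to 0.0568, Agpat3 -0.0278 to 0.0537, Lpin1 -0.748 to 0.791 and Dgat2 -0.00741 to 0.0269. In high-fat libraries they were Gpat3 -0.335 to 0.338, Gpat4 -0.124 to 0.0816, Lpin1 -0.902 to 0.673, Lpin2 -0.0235 to 0.617, Dgat1 -0.0836 to 0.0703 and Dgat2 -0.00171 to 0.24. Over both genotypes they were Lpin1 -0.711 to 0.123 and Lpin3 -0.0469 to 0.113. The other 16 kept their sign, and 13 of them moved by over 1.5 times: in low-fat KO against WT Agpat2 -0.321 to -0.0828, Lpin2 0.136 to 0.822 and Dgat1 -0.137 to -0.0248, in high-fat KO against WT Gpam 0.000304 to 0.228, Agpat2 -0.212 to -0.0687, Agpat3 0.0235 to 0.149 and Lpin3 -0.381 to -0.118, and over both genotypes Gpam -0.175 to -0.0184, Gpat3 -0.558 to -0.22, Gpat4 -0.142 to -0.0447, Lpin2 0.00166 to 0.354, Dgat1 -0.0879 to -0.00378 and Dgat2 -0.163 to -0.0366.

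The number of genes called moved more. In KO fractions it went from 139 to 282 with the replicate block, 544 with a same-mouse correlation, 29 without the variance trend, 0 with only the libraries compared, 0 with the high-fat libraries of number 1 left out, and 0 to 37 with each library left out. Over both genotypes it went from 956 to 1819 with the block, 1992 with a same-mouse correlation, 464 without the high-fat libraries of number 1, and 602 to 1101 with each library left out. In WT fractions it went from 0 to 409 with a same-mouse correlation and 1 with a pseudocount of 10. In KO against WT it went from 1 to 0 in each fraction with only the libraries compared (282 and 232 genes at an unadjusted p under 0.05), and to between 0 and 1 with each high-fat library left out. The replicate block changed no call of an enzyme. In high-fat libraries the same-numbered mice correlated with r from -0.171 to 0.49 and share only a number. Depth limits Lpin3 and Gpat3 most, with counting errors of 8.68% and 7.21%, and 3 mice per genotype limit the KO comparison of Lpin1.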
